A study of Mus musculus with 6 samples.

Results

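Of the 57126 genes in the deposited count table, 8 were chemokine genes chosen by name, *Xcl1*, *Ccl1*, *Ccl3*, *Ccl4*, *Ccl5*, *Ccl9*, *Ccl22*, and *Cxcl10*, and all 8 were found in the table by their Ensembl identifiers. No rule on measured values was used in the choice, but it was made with earlier results of these data known. RNA was sequenced from 6 samples of CD8+ T cells taken from lymph nodes and spleens of OT-I mice, whose transgenic receptor recognizes an ovalbumin peptide. All 6 were stimulated with nano-aAPCs, iron oxide nanoparticles that carry the peptide on MHC class I together with anti-CD28, and all were harvested on day 6. The 3 TEff samples received IL-2 alone and the 3 TRM-like samples received IL-2 plus IL-15 plus TGF-β, so that the parts of IL-15 and TGF-β cannot be told apart. The sources used here do not say whether replicates came from separate mice, and p-values then measure only the spread between these samples, which may be technical.

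Chemokines are small secreted proteins that attract cells bearing the matching receptor, and activated CD8+ T cells are a main source of several of them. XCL1 binds XCR1, the receptor of cross-presenting dendritic cells. CCL3, CCL4, and CCL5 draw T cells, monocytes, and natural killer (NK) cells, CCL1 acts through CCR8, CCL22 through CCR4, CCL9 through CCR1, and the interferon-induced CXCL10 through CXCR3. *Ccl3*, *Ccl4*, *Ccl5*, *Ccl9*, and *Ccl1* lie on chromosome 11 of GRCm39, *Xcl1* on chromosome 1, *Cxcl10* on chromosome 5, and *Ccl22* on chromosome 8.

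Per length, *Ccl5* and *Xcl1* together made up most of the transcripts of the 8 genes in the TEff cells, and *Xcl1* made up nearly all in the TRM-like cells. In the TRM-like cells *Xcl1* was 14.7-fold higher and *Ccl5* was 19.7-fold lower than in the TEff cells. *Ccl3* and *Ccl4* did not differ detectably between the groups, *Ccl1* was higher in 2 of the 3 TRM-like samples without passing the test, and *Ccl9*, *Ccl22*, and *Cxcl10* had too few reads for a comparison. The test was edgeR's quasi-likelihood test over the 26154 genes that had reads in 3 or more samples, with Benjamini-Hochberg adjustment (edgeR adjusted p). Calls required an adjusted p under 0.05 and a log2 fold change beyond 0.58 in either direction. By this rule 1 chemokine gene was higher and 1 was lower, 2 of 8, where 3.01% of all tested genes were called in either direction. The same 2 genes were the ones without overlap between the groups, where 10.6% of all tested genes lay higher and 9.71% lower without overlap. Values below are read counts and CPM, counts per 1000000 reads after scaling by edgeR's TMM method, and CPM per kb is CPM divided by the deposited gene length.

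The libraries held 18319013 to 23622621 counts each, so that 1 read was worth 0.0436 to 0.0553 CPM. TRM-like replicate 3 stood apart from the other TRM-like samples, and the fold changes of *Xcl1*, *Ccl1*, *Ccl3*, and *Ccl4* are given with and without it. Reads fell on 35130 and 35559 genes in TRM-like replicates 1 and 2, against 24229 to 24908 genes in the other 4 samples, which bears on the genes with few reads. Fits without TRM-like replicate 3 keep only replicates 1 and 2 of that group.

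**Figure D1:**
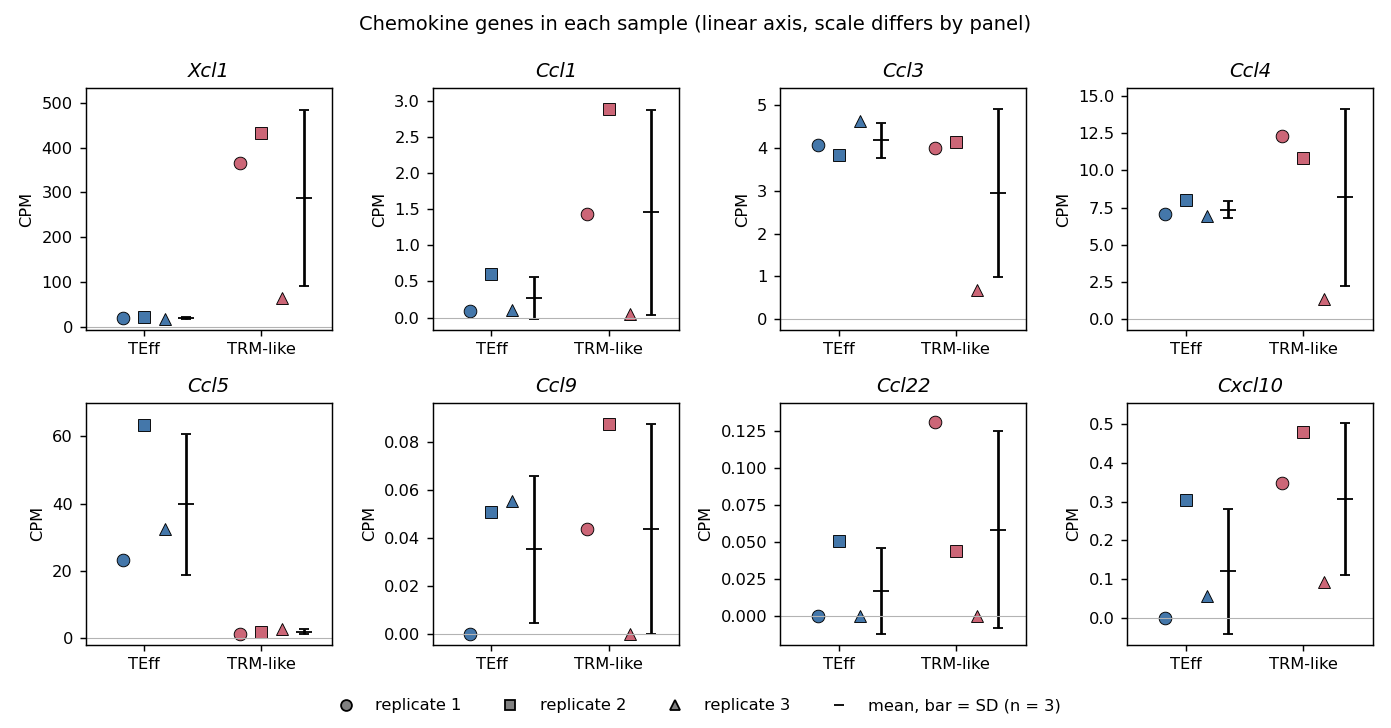
Level of each chemokine gene in CPM (vertical axis, linear, with its own scale in each panel) in the 3 TEff and 3 TRM-like samples, with the mean and SD of each group. *Xcl1* was at 63.4 CPM or more in the TRM-like samples and at 22.4 CPM or less in the TEff samples, *Ccl5* showed the opposite order without overlap, and TRM-like replicate 3 (triangle) was the lowest of all samples for *Ccl1*, *Ccl3*, and *Ccl4*.

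*Xcl1* (ENSMUSG00000026573, chromosome 1, 164759213 to 164763096, minus strand) encodes lymphotactin, the ligand of XCR1. It had 424, 442, and 304 reads in TEff replicates 1, 2, and 3, and 8388, 9898, and 1375 reads in TRM-like replicates 1, 2, and 3. Every TRM-like sample lay above every TEff sample, with replicate 3 much closer to the TEff samples than the other TRM-like samples were. The mean was 19.5 ± 2.79 CPM in the TEff cells and 287 ± 197 CPM in the TRM-like cells (SD, n = 3 per group). The log2 fold change was 3.88 (standard error 0.60, 95% interval 2.51 to 5.24, edgeR adjusted p = 0.0100). TRM-like replicates 1 and 2 held 5.77 and 6.82 times the CPM of replicate 3, and replicate 3 held 2.83 times the highest TEff value. Without TRM-like replicate 3 the log2 fold change was 4.34 (edgeR adjusted p = 3.73e-10). The call was lost without TEff replicate 1, 2, or 3 (edgeR adjusted p = 0.0803, 0.0772, and 0.0868), while the log2 fold change stayed at 3.80 to 3.99 in these fits, which called 0.469%, 0.688%, and 0.506% of all tested genes as higher. *Gm20743*, a long noncoding RNA gene that overlaps *Xcl1* on the opposite strand, had 18, 28, and 16 reads in the TEff samples and 747, 756, and 149 in the TRM-like samples. The strand setting of the counting is not given in the sources used here, so that reads of the overlapping pair cannot be told apart.

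The 250 bases before the RefSeq start of *Xcl1* are shown because it was the chemokine gene called as higher. Those of *Cxcl10*, which had 0 to 11 reads per sample and was not called, and of *Ccl3*, which did not differ detectably, are shown beside it. Such sequences were copied from RefSeq (GRCm38.p6) for 6 of the 8 genes, all but *Ccl4* and *Ccl5*, and each had 1 exact match in GRCm39. The matches of those shown were at chr1:164763092-164763341, chr5:92496749-92496998, and chr11:83540205-83540454, all on the minus strand. Sequences run 5′ to 3′ on the gene's strand, and capitals mark the motifs searched on both strands.
Xcl1: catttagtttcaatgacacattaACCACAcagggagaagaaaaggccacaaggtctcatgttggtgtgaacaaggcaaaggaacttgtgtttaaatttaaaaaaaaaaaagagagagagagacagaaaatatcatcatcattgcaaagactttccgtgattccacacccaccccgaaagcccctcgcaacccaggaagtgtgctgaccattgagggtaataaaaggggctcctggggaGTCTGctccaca
Cxcl10: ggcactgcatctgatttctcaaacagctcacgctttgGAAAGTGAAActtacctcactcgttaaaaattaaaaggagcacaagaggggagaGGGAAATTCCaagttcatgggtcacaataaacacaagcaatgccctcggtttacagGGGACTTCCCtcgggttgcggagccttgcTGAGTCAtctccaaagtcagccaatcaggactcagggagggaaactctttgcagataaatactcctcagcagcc
Ccl3: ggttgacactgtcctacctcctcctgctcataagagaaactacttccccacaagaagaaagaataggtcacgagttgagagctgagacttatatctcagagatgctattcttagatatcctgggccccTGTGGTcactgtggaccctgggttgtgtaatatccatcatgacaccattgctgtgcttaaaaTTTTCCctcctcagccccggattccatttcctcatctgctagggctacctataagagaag
The motifs were NFAT (GGAAAA), AP-1 (TGANTCA, where N is any base), SMAD (GTCTG), RUNX (TGTGGT), the core promoter box (TATAAA), and the consensus letters of NF-kB, the interferon response element, and T-box. *Xcl1* held SMAD letters 12 bases and RUNX letters 227 bases before the start, and *Ccl3* held NFAT and RUNX letters. *Cxcl10* held NF-kB letters at 159 bases (GGGAAATTCC) and 103 bases (GGGACTTCCC), AP-1 letters at 74 bases, and the interferon response letters at 213 bases (GAAAGTGAAA). Among 32851 RefSeq promoters of the same length, 17.6% held the NF-kB letters, 20.4% NFAT, 6.75% AP-1, 2.98% the interferon response element, 42.2% SMAD, 14.1% RUNX, 1.12% T-box, and 12.4% the core promoter box. A match is a description of letters and not a site of binding.

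*Ccl5* (ENSMUSG00000035042, chromosome 11, 83416602 to 83425942, minus strand) encodes RANTES, a chemokine that effector and memory CD8+ T cells make in large amounts. It had 511, 1253, and 588 reads in the TEff samples and 31, 44, and 60 in the TRM-like samples. Here TRM-like replicate 3 was the highest of its group, and it still lay far below the lowest TEff sample, which held 8.45 times its CPM. The mean was 39.8 ± 21.0 CPM in the TEff cells and 2.01 ± 0.712 CPM in the TRM-like cells (SD, n = 3 per group). The wide TEff spread came from replicate 2, at 63.4 CPM, against 23.4 and 32.5 CPM in replicates 1 and 3. The log2 fold change was -4.30 (standard error 0.42, 95% interval -5.25 to -3.35, edgeR adjusted p = 0.00113). *Ccl5* was called as lower in each of the 16 alternatives tried, and its log2 fold change lay between -4.60 and -3.79 over them. The alternative that used the adjusted p alone was the same fit, so that a called gene could not lose its call there.

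*Ccl3* and *Ccl4* encode the inflammatory chemokines MIP-1α and MIP-1β, which are induced together after receptor stimulation, and the genes are neighbours on chromosome 11 (83538670 to 83540191 and 83553383 to 83555509). *Ccl3* had 89, 76, and 84 reads in the TEff samples and 92, 95, and 15 in the TRM-like samples. TRM-like replicates 1 and 2 were within the range of the TEff samples on the CPM scale, and replicate 3 was below them all. The log2 fold change of *Ccl3* was -0.50 (standard error 0.50, 95% interval -1.63 to 0.64, edgeR adjusted p = 0.711), and without TRM-like replicate 3 it was -0.04 (edgeR adjusted p = 0.903). *Gm53692*, an antisense long noncoding RNA gene over *Ccl3*, had 4 to 22 reads per sample.

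*Ccl4* had 155, 158, and 126 reads in the TEff samples and 282, 248, and 30 in the TRM-like samples. TRM-like replicates 1 and 2, at 12.3 and 10.8 CPM, lay above the TEff samples, at 7.35 ± 0.565 CPM (SD, n = 3), and replicate 3 lay below them at 1.38 CPM. With all samples its log2 fold change was 0.16 (standard error 0.58, 95% interval -1.15 to 1.46, edgeR adjusted p = 0.936). Without TRM-like replicate 3 *Ccl4* was called as higher, with a log2 fold change of 0.65 (edgeR adjusted p = 0.00666), in a fit that called 14% of all genes tested. The intervals with all samples do not show that *Ccl3* and *Ccl4* stayed level. TRM-like replicate 3 held less of both, since replicates 1 and 2 had 5.80 and 6.00 times its *Ccl3* and 8.89 and 7.83 times its *Ccl4*. *Ccl5* went the other way, with replicates 1 and 2 at 0.489 and 0.695 times the CPM of replicate 3. The number of *Ccl4* reads per *Ccl3* read, which does not depend on scaling, was 1.77 ± 0.291 in the TEff samples and 2.56 ± 0.535 in the TRM-like samples (SD, n = 3), and the groups overlapped.

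**Figure D2:**
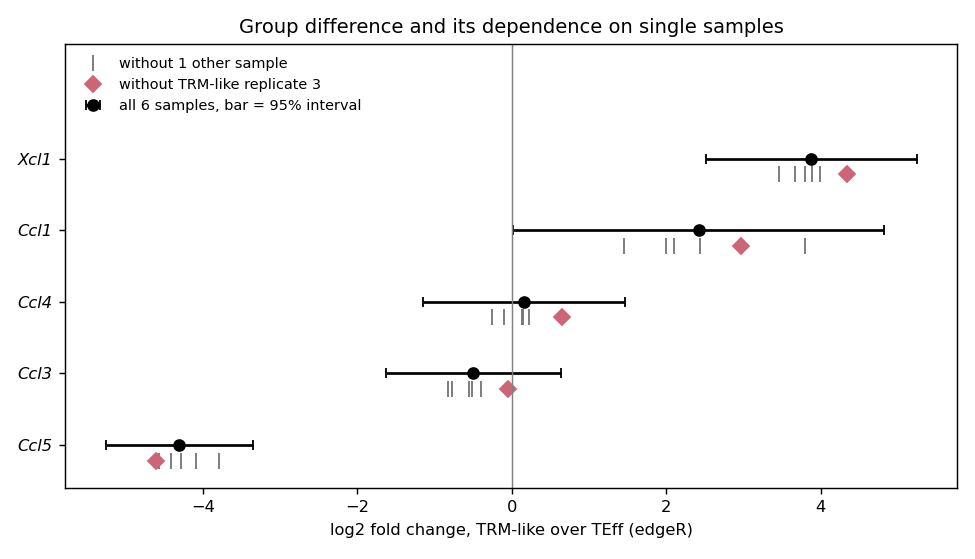
Log2 fold change of TRM-like over TEff cells (horizontal axis) for the 5 chemokine genes with enough reads, with the 95% interval of the fit of all 6 samples and the values with each sample left out. *Xcl1* and *Ccl5* stayed on their side of 0 in each of these fits, as did *Ccl1* and *Ccl3*, which were not called with all samples. *Ccl3* came as close to 0 as -0.04, and *Ccl4* fell on both sides and reached 0.65 without TRM-like replicate 3.

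*Ccl1* (ENSMUSG00000020702, chromosome 11, 82067483 to 82196516, minus strand) encodes the ligand of CCR8. It had 2, 12, and 2 reads in the TEff samples and 33, 66, and 1 in the TRM-like samples. TRM-like replicates 1 and 2 were above the TEff samples, and the single read of replicate 3 was the lowest value of all (0.0461 CPM, exact Poisson 95% upper limit 0.257 CPM, counting error only). The log2 fold change was 2.42 (standard error 1.06, edgeR adjusted p = 0.333). Without TRM-like replicate 3 it was 2.97 and *Ccl1* was called as higher (edgeR adjusted p = 0.00195). With no filter on low counts it was called as well, in a fit that called 2.37% of all genes as higher. Without TRM-like replicate 3, 3 of the 8 chemokine genes were higher and 1 was lower, where 6.38% of all tested genes were higher and 7.67% were lower. Long noncoding RNA genes that overlap *Ccl1* and *Ccl5* in the later annotation were not analysed here.

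*Ccl9*, *Ccl22*, and *Cxcl10* are better known as products of myeloid and dendritic cells, and CXCL10 also of many interferon-exposed cells. *Ccl9* had 0, 1, and 1 reads in the TEff samples and 1, 2, and 0 in the TRM-like samples. *Ccl22* had 0, 1, and 0 reads against 3, 1, and 0. Taking 3 reads as the limit that a count of 0 allows (counting error only), a library with 0 reads allows up to 0.137 CPM in TEff replicate 1 and 0.138 CPM in TRM-like replicate 3. A difference in either gene was not detectable at this depth, and nothing is read from their fitted folds. *Cxcl10* had 0, 6, and 1 reads in the TEff samples and 8, 11, and 2 in the TRM-like samples. *Art3*, a gene over *Cxcl10* on the opposite strand, had 3 to 10 reads per sample. The *Cxcl10* groups overlapped, and its log2 fold change of 1.35 (standard error 0.97, edgeR adjusted p = 0.595) did not pass the test.

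The 1547 olfactory and vomeronasal receptor genes, which T cells do not use, gave the level at which a few reads say little. In TRM-like replicates 1 and 2, 61.8% and 65.5% of them had a read, against 2.97% to 3.56% in the other 4 samples. Their 99th percentile was 0.136 and 0.144 CPM per kb in TRM-like replicates 1 and 2 and 0.0351 to 0.0563 CPM per kb in the others. *Ccl9* and *Ccl22* were above this percentile in 0 of 6 samples. *Cxcl10* was above it in 4 of 6 samples, and *Xcl1*, *Ccl1*, *Ccl3*, *Ccl4*, and *Ccl5* in 6 of 6. The part of these low reads in the *Cxcl10* values was not tested.

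**Figure D3:**
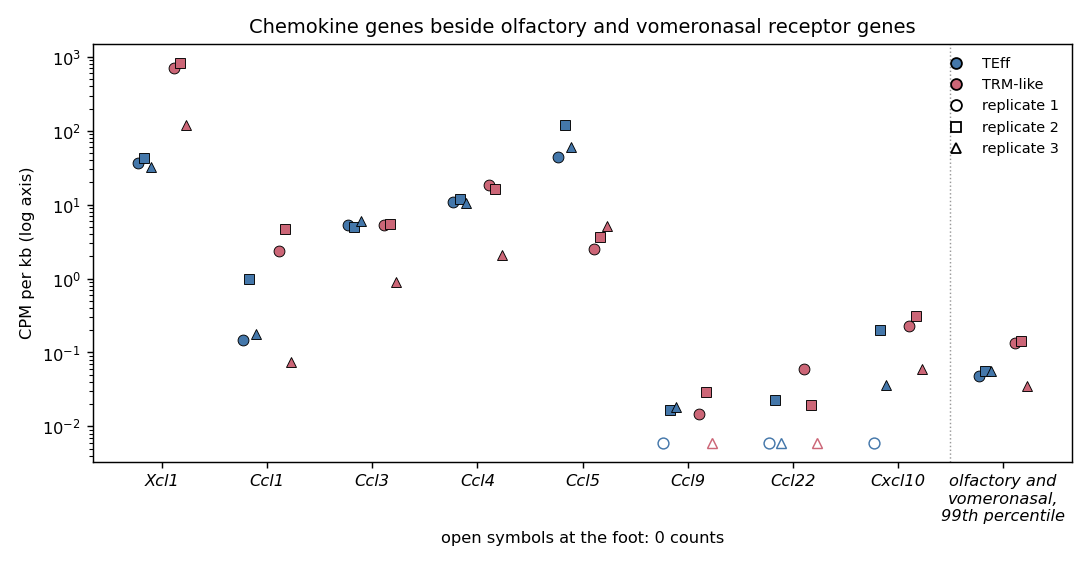
CPM per kb of each chemokine gene in each sample (vertical axis, logarithmic), beside the 99th percentile of the 1547 olfactory and vomeronasal receptor genes in the same sample. *Xcl1*, *Ccl1*, *Ccl3*, *Ccl4*, and *Ccl5* were above that percentile in each sample, and *Ccl9* and *Ccl22* in none of them, with 0 reads drawn as open symbols at the foot.

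Levels were compared between genes per length. In the TEff cells *Ccl5* was the highest at 74.7 ± 39.5 CPM per kb, followed by *Xcl1* at 37.3 ± 5.34, *Ccl4* at 11.1 ± 0.857, and *Ccl3* at 5.47 ± 0.535 CPM per kb (SD, n = 3). *Ccl1* followed at 0.440 ± 0.477 CPM per kb and *Cxcl10* at 0.0787 ± 0.106 CPM per kb (SD, n = 3), with *Ccl9* and *Ccl22* lower still. This order of the first 5 genes held in each TEff sample, although *Ccl5* and *Xcl1* came as close as 43.9 and 37.1 CPM per kb in replicate 1. The neighbours *Ccl5* and *Xcl1*, and *Ccl1* and *Cxcl10*, did not differ beyond the SD of the more variable gene.

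In the TRM-like cells *Xcl1* was the highest at 549 ± 376 CPM per kb (SD, n = 3). *Ccl4* at 12.4 ± 8.98, *Ccl3* at 3.85 ± 2.56, *Ccl5* at 3.79 ± 1.34, and *Ccl1* at 2.38 ± 2.31 CPM per kb (SD, n = 3) followed, and neighbours among them did not differ beyond the SD of the more variable gene over samples. Within each TRM-like sample *Ccl4* was above *Ccl3*, at 18.6 and 5.24, 16.4 and 5.42, and 2.10 and 0.903 CPM per kb in replicates 1, 2, and 3. *Xcl1* led in each TRM-like sample, while *Ccl5* ranked 4 and 5 of the 8 genes in replicates 1 and 2 and 2 of 8 in replicate 3. Among 14484 protein-coding genes tested, *Xcl1* ranked 43 and 40 by CPM per kb in TRM-like replicates 1 and 2 and 303 in replicate 3, against 972 to 1537 in the TEff samples. *Ccl5* ranked 270 to 1062 in the TEff samples and 6814 to 8536 in the TRM-like samples.

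The share of each gene in the summed CPM per kb of the 8 genes gave the make-up of the chemokine transcripts. *Xcl1* made up 38.1%, 23.7%, and 29.2% in TEff replicates 1, 2, and 3, and 96.0%, 96.4%, and 93.6% in TRM-like replicates 1, 2, and 3. *Ccl5* made up 45.2%, 66.1%, and 55.5% in the TEff samples, and 0.349%, 0.421%, and 4.01% in the TRM-like samples. Neither share overlapped between the groups. TRM-like replicate 3, whose levels stood apart from its group, had nearly the same *Xcl1* share and a larger *Ccl5* share. The shares of *Ccl4* and *Ccl3* were smaller in the TRM-like samples, with *Ccl4* at 9.12 ± 2.20% and 2.03 ± 0.481% and *Ccl3* at 4.59 ± 1.56% and 0.683 ± 0.0452% of the TEff and TRM-like sums (SD, n = 3). The sum itself was 97.2, 180, and 110 CPM per kb in the TEff samples and 729, 857, and 130 CPM per kb in the TRM-like samples, so that the sums overlapped through TRM-like replicate 3. There were 0.353 to 0.830 *Xcl1* reads for each *Ccl5* read in the TEff samples and 271, 225, and 22.9 in the TRM-like samples. For each *Ccl4* read there were 2.41 to 2.80 *Xcl1* reads in the TEff samples and 29.7, 39.9, and 45.8 in the TRM-like samples, where replicate 3 was the highest.

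**Figure D4:**
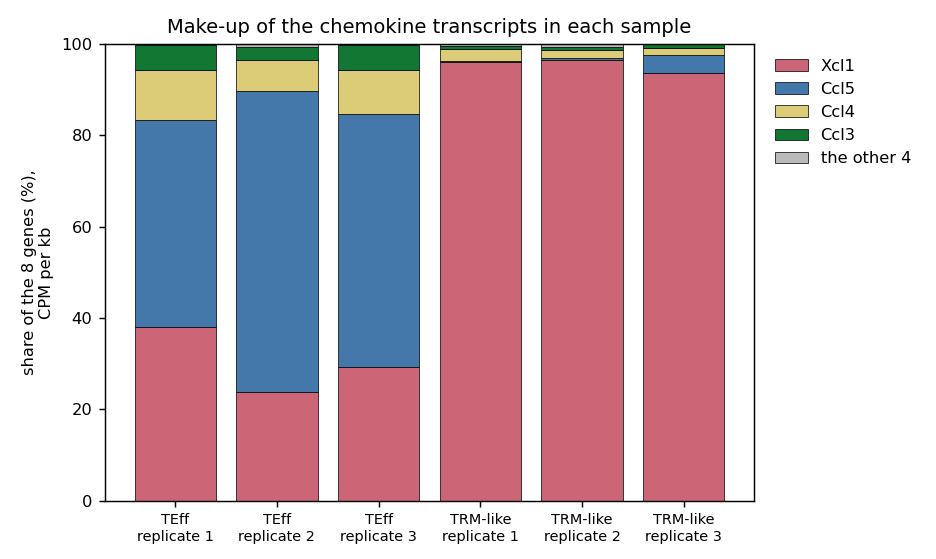
Share of each chemokine gene in the summed CPM per kb of the 8 genes (vertical axis, percent) in each of the 6 samples. *Xcl1* filled 93.6% to 96.4% of the TRM-like bars and 23.7% to 38.1% of the TEff bars, where *Ccl5* was the largest part.

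The receptors of these chemokines were read from the same fit. Of 9 receptor genes, including the scavenging receptors *Ackr1* and *Ackr2*, 8 were tested, 1 was called as higher and 2 as lower, where 1.52% and 1.48% of all tested genes were higher and lower. *Ccr8*, the receptor of CCL1 and a marker of skin-homing and regulatory T cells, was at 0.732, 0.354, and 0.497 CPM in the TEff samples and at 12.1, 15.1, and 6.18 CPM in the TRM-like samples. All TRM-like samples were above all TEff samples, by a log2 fold change of 4.37 (standard error 0.41, edgeR adjusted p = 0.000944). *Ccr4*, the receptor of CCL22, was at 3.70, 2.48, and 4.20 CPM and at 0.305, 0.262, and 0.692 CPM in the same order. Its log2 fold change was -3.04 (standard error 0.40, edgeR adjusted p = 0.00458). *Cxcr3*, the receptor of CXCL10, was at 127, 146, and 123 CPM in the TEff samples and at 58.4, 66.8, and 45.5 CPM in the TRM-like samples. It fell by 1.21 on the log2 scale (standard error 0.17, edgeR adjusted p = 0.00543). These 3 genes kept their calls in each of the 6 fits without 1 sample.

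*Xcr1*, the receptor of XCL1, was at 0.884 to 2.23 CPM in the TEff samples and 0.646 to 0.743 CPM in the TRM-like samples. The groups did not overlap, which was so for 20.3% of all tested genes, with a log2 fold change of -1.22 (standard error 0.38, edgeR adjusted p = 0.165). *Ccr1*, *Ccr3*, and *Ackr2* were below 1 CPM in each sample and did not pass the test.

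**Figure D5:**
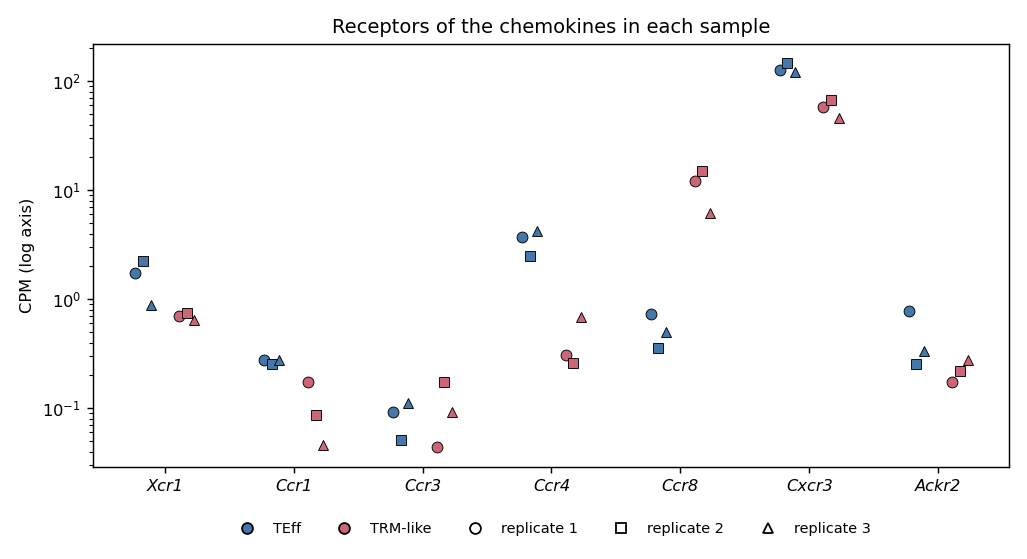
CPM of 7 receptor genes of the chemokines (vertical axis, logarithmic) in each sample, with TEff and TRM-like samples in separate colours. *Ccr8* rose to between 6.18 and 15.1 CPM in the TRM-like samples, and *Ccr4* and *Cxcr3* were lower in each of them than in each TEff sample.

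The other 30 chemokine ligand genes of the list were nearly silent. The number without a single read in the 6 samples was 10, and only 6 of the 30 were tested, of which 0 were called by edgeR, 0 of the 5 to which DESeq2 gave an adjusted p, and 0 of 6 by limma-voom. The unadjusted edgeR p was under 0.05 for 1 of them, *Ccl20*, at 0 reads in each TEff sample and 2, 4, and 1 in the TRM-like samples. Its 0.0614, 0.123, and 0.0325 CPM per kb lay below the 99th percentile of the olfactory and vomeronasal genes in each TRM-like sample (0.136, 0.144, and 0.0351). Nothing is read from these few reads. The 3 most abundant were *Ccl27a* at 0.830 to 2.27 CPM per sample, *Ccl25* at 0.810 to 1.83 CPM, and *Cxcl16*, the ligand of CXCR6, at 0.718 to 1.62 CPM, and the groups overlapped for each of them. The *Ccl27a* locus has near-identical copies, so that its reads could be split in the counting.

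Of 22 transcription factors and regulators known to act on chemokine genes, 4 were called as higher and 0 as lower, where 1.52% and 1.48% of all tested genes were higher and lower. They included *Stat2*, *Irf1*, and *Irf8*, mediators of interferon responses. *Irf8* rose by 1.81 on the log2 scale (edgeR adjusted p = 0.00510), from 23.5 to 46.8 CPM in the TEff samples to 124 to 143 CPM in the TRM-like samples. *Irf1* rose by 1.07 (edgeR adjusted p = 0.0351) and *Stat2* by 0.85 (edgeR adjusted p = 0.0261). *Irf1* and *Stat2* were called in only 1 of the 6 fits without 1 sample, the fit without TRM-like replicate 3. The 3 most abundant of these genes by mean CPM that are not in this group were read as well. *Nfkb1* was at 280 to 352 CPM over all samples and *Nfatc3* at 136 to 221 CPM, with log2 fold changes of 0.08 (edgeR adjusted p = 0.838) and -0.35 (edgeR adjusted p = 0.335). *Irf4* was at 111 to 140 CPM in the TEff samples and 166 to 182 CPM in the TRM-like samples without being called (log2 fold change 0.46, edgeR adjusted p = 0.144). *Tbx21*, which encodes T-bet, and *Runx3*, both named after their values were seen, were not called, with log2 fold changes of -0.26 (edgeR adjusted p = 0.625) and 1.08 (edgeR adjusted p = 0.150). *Runx3* was called as higher in 1 of the 6 fits without 1 sample. The median log2 fold change of the 22 genes was 0.28, against 0.02 over all genes tested.

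A list of 10 genes for the packing, sulfation, and trimming of secreted chemokines held 1 called gene, named after its values were seen, where 3.01% of all tested genes were called. *Cpd*, which encodes the trimming enzyme carboxypeptidase D, rose from 18.9 to 23.8 CPM in the TEff samples to 139 to 143 CPM in the TRM-like samples (log2 fold change 2.70, edgeR adjusted p = 7.52e-05). *Dpp4*, whose enzyme clips CXCL10 and other chemokines, was at 114 to 144 CPM and at 83.2 to 117 CPM (edgeR adjusted p = 0.431).

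Markers of other cell types were read because several of these chemokines are also made by NK and myeloid cells, and in bulk RNA fewer cells of a type and less RNA per cell cannot be told apart. All 12 T cell markers were tested and summed to 3724 to 3800 CPM in the TEff samples and 4435 to 5447 CPM in the TRM-like samples. Of these 12 markers 2 were called, where 3.01% of all tested genes were called in either direction. *Cd8a* was at 421 to 448 CPM and 927 to 989 CPM, and *Cd4* at 0 to 0.111 CPM over all samples. *Cd8a* was called as higher (log2 fold change 1.14, edgeR adjusted p = 0.00219), also in each of the 6 fits without 1 sample. Other T cell markers, named after their values were seen, went the other way. *Cd5* was called as lower (log2 fold change -0.88, edgeR adjusted p = 0.0132), but in only 2 of the 6 fits without 1 sample. *Cd2* lay lower without overlap and narrowly missed the threshold (log2 fold change -0.64, edgeR adjusted p = 0.0504), while DESeq2 and limma-voom called it. Of the 8 NK markers edgeR called 0, with 2 at an unadjusted p under 0.05, limma-voom called 0, and DESeq2 called 1 of the 4 to which it gave an adjusted p, *Tyrobp*. They summed to 26.7, 47.4, and 30.9 CPM in the TEff samples and to 47.1, 48.1, and 6.36 CPM in the TRM-like samples. In TRM-like replicate 3 *Ncr1*, *Klra8*, *Klra4*, and *Klra9* were at 0, but these genes had only 0 to 6 reads per sample. *Ncr1* was also at 0 in TEff replicate 3, and *Klra8* and *Klra9* in TEff replicates 1 and 3. *Klrb1c* was at 0.0922 CPM in TRM-like replicate 3, against 6.68 to 21.9 CPM in the other samples. *Tyrobp* and *Fcer1g* were at 7.63 and 16.7 CPM in TRM-like replicate 1 and 8.34 and 18.1 CPM in replicate 2. In replicate 3 they were at 0.692 and 0.922 CPM, slightly below the TEff samples, at 0.774 to 1.11 and 1.14 to 2.54 CPM. Each was called as higher in 1 of the 6 fits without 1 sample, the fit without TRM-like replicate 3 (edgeR adjusted p = 5.43e-07 and 4.16e-07). That fit called 6.38% of all tested genes as higher. *Ncr1*, the defining NK receptor, was at 0 to 0.262 CPM in all samples. TRM-like replicate 3 was thus low in this list as it was in *Ccl3*, *Ccl4*, and *Ccl1*, and the part of this in the chemokine values was not tested.

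The 17 myeloid and dendritic markers summed to 25.5 to 30.2 CPM in the TEff samples and 19.1 to 28.7 CPM in the TRM-like samples, and 0 of the 12 tested were called by edgeR or limma-voom, with 4 at an unadjusted edgeR p under 0.05, and 0 of the 10 to which DESeq2 gave an adjusted p. *S100a8* and *S100a9* were at 0 in each sample, *Lyz2* had reads only in TRM-like replicate 2, at 0.612 CPM, and *Csf1r* was at 0.0461 to 0.480 CPM. The members named next were picked after their values were seen. The 4 at an unadjusted p under 0.05 were *Mpeg1* and *H2-Aa*, higher in the TRM-like samples, and *Itgam* and *Cd14*, lower. *H2-Ab1* was at 10.1 to 17.6 CPM in the TEff samples and at 8.16, 10.3, and 14.7 CPM in the TRM-like samples. It was thus highest of its group in TRM-like replicate 3, while *Fcgr3* and *Itgax* were low there. *Fcgr3* was at 0.686 to 1.77 CPM in the TEff samples and at 5.28, 6.12, and 0.138 CPM in the TRM-like samples, and was called as higher without replicate 3 (edgeR adjusted p = 0.000125). *Itgax* was at 4.25 to 8.96 CPM in the TEff samples and at 4.71, 3.71, and 0.646 CPM in the TRM-like samples. Their part in the chemokine values was not tested. The B cell list summed to 6.26 to 11.2 CPM over all samples with 0 of 4 tested genes called by edgeR or limma-voom, 0 of the 3 to which DESeq2 gave an adjusted p, and 1 at an unadjusted edgeR p under 0.05. The list for CD4+ and regulatory T cells, with 4 genes tested, held 1 called gene, *Zbtb7b*, as lower (edgeR adjusted p = 0.0335). It kept this call in 2 of the 6 fits without 1 sample, and 1.48% of all tested genes were lower with all samples. The mast cell and basophil list summed to 3.66 to 5.32 CPM in the TEff samples and to 55.9, 50.7, and 6.13 CPM in the TRM-like samples. Nearly all of this was *Kit*, called as higher (edgeR adjusted p = 0.0377) and low in TRM-like replicate 3, while *Fcer1a* and *Mcpt4* were at 0 in each sample. *Kit* was the 1 called of the 3 tested genes of this list, where 1.52% of all tested genes were higher. It was called in only 1 of the 6 fits without 1 sample, the fit without TRM-like replicate 3.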

How the data were processed

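RNA sequencing of 6 samples was analysed, 3 TEff and 3 TRM-like, grouped by the sample labels. The authors trimmed reads with Cutadapt 4.8, mapped and counted them with Rsubread (GRCm39, GENCODE), and deposited the resulting raw counts and gene lengths without normalization. Total RNA libraries were made with a stranded kit, and the strand setting of the counting is not given in the sources used here. Symbols came from a later GENCODE annotation of GRCm39, in which 56620 of 57126 genes were found. Genes with reads in 3 or more samples were tested with edgeR 4.0.16 in R 4.3.3 (TMM, glmQLFit, glmQLFTest, Benjamini-Hochberg over all 26154 genes), checked on simulated data. The thresholds followed the study. The standard error is the log2 fold change divided by the square root of F. The study removed a batch that its text does not name, so no batch was a term here. Alternatives were DESeq2 1.42.0, limma-voom (limma 3.58.1), other scalings and filters, the adjusted p alone, the replicate number as a block, and each sample left out. The genes named were the 8 chemokine genes, called genes and the 3 most abundant of the related lists, and genes of like pattern. The members and lists were chosen with earlier results of these data known. A few genes that the rule would name are not reported here.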

Additional observations from a re-analysis of the deposited data

How the results depend on the processing

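Of 274 values compared with those reported, 223 kept their direction and their side of the threshold, or stayed within 1.5 times for counts. The values of the adjusted p alone come from the reported fit itself, so that its fold changes are the same by construction. *Ccl5* was called in each of the 16 alternatives. With each sample left out, the log2 fold change was 3.45 to 4.34 for *Xcl1*, 1.45 to 3.79 for *Ccl1*, -0.26 to 0.65 for *Ccl4*, and -0.49 to 0.84 for *Ccl9*. In these fits 0 to 3 chemokine genes were called as higher, as were 2 to 8 of the 22 regulators, 119 to 1625 of all genes were higher, and 144 to 1954 were lower. Of the counts over all genes, the lowest came without a TEff sample and the highest without TRM-like replicate 3. *Ccl4* changed sign in limma-voom (-0.34). DESeq2 called 668 genes higher and 588 lower. With no filter 1002 genes were higher and 866 lower, with 2 chemokine genes (*Ccl1* at 2.41) and 7 regulators higher and 4 receptors lower. Over genes whose count reached 10 throughout, where *Ccr8* and *Ccr4* were not tested, 0 receptors were higher and 1 was lower. The same-numbered samples had correlations of -0.292, 0.309, and 0.389 in their deviations from the group means. Each TEff sample had the same sign of correlation with TRM-like replicates 1 and 2 and the opposite sign with replicate 3. With replicate 3 apart from its group, these values cannot decide whether samples pair by number. Samples of different number reached 0.519 (TEff replicate 2 with TRM-like replicate 1) and -0.492 (TEff replicate 2 with TRM-like replicate 3). A structure shared across the groups was not tested. With the replicate number as a block, 955 genes were higher and 1079 lower, with 2 chemokine genes (*Ccl1* at 2.40) and 7 regulators higher, 4 receptors lower, and *Ccl4* at -0.17. That fit called 3.65% of all tested genes as higher, and its prior degrees of freedom were infinite. With the block and the filter at 10 counts, *Ccl4* was at -0.15 and 0 receptors were higher. The cause of these changes was not tested beyond the samples and genes left out. *Ccl1*, *Ccl9*, *Ccl22*, and *Cxcl10* had no value where the filter required 10 counts. Depth limits *Ccl9* and *Ccl22*, with 0 to 3 reads per sample.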

Other observations

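For each of the 4 chemokine genes whose count reached 10 throughout, the 3 genes of most like pattern were sought among 10880 other protein-coding genes under the same minimum. Likeness was the root mean square difference of log2 CPM, centred for each gene, over the 6 samples, where a smaller value is more alike. *Xcl1* was nearest to *Cx3cr1*, the receptor of fractalkine (0.289), *Hpgds*, a prostaglandin D2 synthase (0.299), and *Kit*, the stem cell factor receptor (0.443). *Cx3cr1* was at 0.503 to 0.663 CPM in the TEff samples and at 11.4, 11.0, and 1.43 CPM in the TRM-like samples. *Ccl3* was nearest to *Gpr141* (0.171), *H2ac25* (0.187), and *Sdcbp2* (0.226). Each of these was lowest in TRM-like replicate 3. *Ccl4* was nearest to *Rgs16*, a regulator of G protein signalling (0.256), *Tle2* (0.286), and *Ltbp3* (0.289). *Rgs16* was at 8.86 to 10.4 CPM in the TEff samples and at 20.1, 18.9, and 2.77 CPM in the TRM-like samples. *Ccl5* had no neighbour as close, and those given here are *Zfp608* (0.611) and *Gucy2e* (0.613). *Zfp608* was at 27.0 to 32.2 CPM in the TEff samples and at 1.48, 1.49, and 4.33 CPM in the TRM-like samples, where replicate 3 was the highest, as it was for *Ccl5*. The 6 samples form 2 groups with 1 sample apart, so that many genes share these patterns, and no test was made.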
